A study of Mus musculus with 12 samples.

Results

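Serpina3 genes code for protease inhibitors of the serpin superfamily. The set described here is 7 of the 55536 genes of the annotation: Serpina3c, Serpina3f, Serpina3g, Serpina3i, Serpina3k, Serpina3m and Serpina3n. They were chosen by their symbols and with their estimated counts in these Ctr, Dexa and IFNg libraries known, and their reads were followed in each library and as a sum. A serpin offers an exposed loop, the reactive centre loop, to a protease as bait. When the protease cuts the loop, the serpin changes shape and traps the enzyme in a dead complex. Humans carry a single such gene, SERPINA3, while in the mouse it has been copied into a cluster whose members share most of their sequence but differ in the loop. Serpina3n, the member best known in the brain, is secreted, inhibits granzyme B, leukocyte elastase and cathepsin G, and is used as a marker of reactive astrocytes and of disease-associated oligodendrocytes. Serpina3g, also called Spi2a, stays inside the cell and inhibits cathepsins released from lysosomes.

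The cells were cultured mouse OPCs (oligodendrocyte precursor cells), a proliferating cell population from which oligodendrocytes, the myelin-forming cells of the brain, develop. Per the study's methods, they came from crosses of Sox10:Cre mice, kept on C57BL/6j, with RCE:loxP (EGFP) mice of mixed C57BL/6 and CD1 background, in which Cre under Sox10 turns on GFP across the oligodendrocyte lineage. Brains of P4 to P6 pups of both sexes were pooled, and cells were taken either as Sox10-GFP+ cells by flow sorting or with CD140a beads, so a culture may hold other Sox10 or CD140a cells. The labels call all samples Sox10GFP+ OPCs and name EAE as the mouse model, although the cells came from pups. All groups were grown with PDGFaa and bFGF. There were 4 libraries each, from different litters, of Ctr-OPCs (untreated), of Dexa-treated OPCs (the synthetic glucocorticoid dexamethasone, 1 µM, 48 h) and of IFN-γ-treated OPCs (100 ng/ml, 48 h). Total RNA without ribosomal RNA was sequenced.

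Reads in genes ranged from 19209059 to 52074655 over the 11 complete tables. The table of Dexa replicate 3 stopped after 33.7% of the transcripts, but it listed the whole Serpina3 cluster, so all 12 libraries give values for these genes, while fits over all genes hold 3 Dexa libraries. Normalized counts are estimated counts divided by DESeq2's size factor of the library, and that of Dexa replicate 3 was estimated over 6169 genes it shares with the others. The 9 OPC markers examined had a summed TPM (transcript abundance per length, scaled to the same total in each library) of 694 to 2136 over the complete libraries.

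The 14 Serpina3 genes and pseudogenes of the annotation lie side by side on chromosome 12 between 104112724 and 104414329 (GRCm38). The members are Serpina3c (104146382 to 104153870, minus strand) and, on the plus strand, Serpina3f (104214544 to 104221129), Serpina3g (104236245 to 104241939), Serpina3i (104263122 to 104269372), Serpina3k (104338486 to 104346144), Serpina3m (104338486 to 104394257) and Serpina3n (104406729 to 104414329). The annotated spans of Serpina3k and Serpina3m share their start. The bases before the start are shown because both treatments act on transcription through known sequence elements. The GAS element (gamma-activated sequence) is found before many genes induced by IFN-γ, and dexamethasone activates the glucocorticoid receptor, which binds a palindromic glucocorticoid element. RefSeq's promoter windows (GRCm38.p6, 250 bases before to 50 after each start) were found for 5 members, Serpina3c, Serpina3f, Serpina3g, Serpina3i and Serpina3n, and positions are counted from RefSeq's start. Serpina3f had 2 windows, of which the one with the earlier start is shown and plotted. The 250 bases before the start follow, each 5′ to 3′ on the strand of the gene, with matches to GAS (TTCNNNGAA) and to the glucocorticoid element (GNACA, any 3 bases, then TGTNC) in capitals.
Serpina3f, chr12:104214294-104214543 (plus strand): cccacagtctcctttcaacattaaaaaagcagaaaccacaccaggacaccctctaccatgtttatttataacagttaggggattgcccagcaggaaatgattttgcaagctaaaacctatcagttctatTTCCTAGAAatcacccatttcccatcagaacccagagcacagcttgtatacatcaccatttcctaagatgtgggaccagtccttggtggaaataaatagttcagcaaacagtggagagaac
Serpina3i, chr12:104262872-104263121 (plus strand): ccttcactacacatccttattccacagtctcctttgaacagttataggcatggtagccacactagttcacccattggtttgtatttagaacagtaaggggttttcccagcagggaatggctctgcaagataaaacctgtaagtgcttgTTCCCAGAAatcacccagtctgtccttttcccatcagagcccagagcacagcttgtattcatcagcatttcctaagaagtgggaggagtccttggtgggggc
Serpina3g, chr12:104235897-104236146 (plus strand): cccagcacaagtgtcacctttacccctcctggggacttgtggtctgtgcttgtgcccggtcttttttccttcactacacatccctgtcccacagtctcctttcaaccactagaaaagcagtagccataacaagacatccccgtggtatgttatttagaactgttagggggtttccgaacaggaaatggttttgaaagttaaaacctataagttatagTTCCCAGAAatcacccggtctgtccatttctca
Serpina3n, chr12:104406458-104406707 (plus strand): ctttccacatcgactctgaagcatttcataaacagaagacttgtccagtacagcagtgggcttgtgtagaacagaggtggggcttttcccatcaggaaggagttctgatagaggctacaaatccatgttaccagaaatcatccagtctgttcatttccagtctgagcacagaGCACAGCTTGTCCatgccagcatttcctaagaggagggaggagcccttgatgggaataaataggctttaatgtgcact
Serpina3c, chr12:104153873-104154122 (minus strand): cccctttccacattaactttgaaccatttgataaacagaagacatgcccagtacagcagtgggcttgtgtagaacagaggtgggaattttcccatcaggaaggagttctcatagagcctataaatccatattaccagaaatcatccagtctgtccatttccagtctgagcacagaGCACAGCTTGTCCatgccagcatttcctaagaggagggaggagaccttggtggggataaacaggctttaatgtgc

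The GAS letters were found in the windows of Serpina3f (TTCCTAGAA, from base -121), Serpina3i (TTCCCAGAA, from base -102) and Serpina3g (TTCCCAGAA, from base -33), and not in those of Serpina3n and Serpina3c. In the other Serpina3f window, which begins at base 104214383, the same GAS letters lie from base -210. GAS was present in 8.30% of all 32851 windows of the table. The glucocorticoid element showed the opposite distribution among the members. It was found in Serpina3n (GCACAGCTTGTCC, from base -78) and Serpina3c (the same letters, from base -75), and in 0.475% of all windows. Both motifs read the same on either strand and no match overlapped another. The windows can be lined up at these places, since in all 5 genes the 9 letters in the GAS position are followed by ATCA. Counted from 1 at the first of these 9 letters and against Serpina3i, Serpina3f differs by C5T, which falls in the free middle of the motif, while Serpina3n and Serpina3c differ by C3A, which breaks it. At the 13 letters of the glucocorticoid element, counted in the same way against Serpina3i, Serpina3f has the same letters, and Serpina3n and Serpina3c differ by A12C and T13C. In Serpina3g this place lies past RefSeq's start, from base 13, and differs by G10A and A12C. RefSeq starts Serpina3g just after base 104236146, and the annotated span given above starts at 104236245. Both Serpina3g positions therefore depend on the start taken. Serpina3n and Serpina3c share a run of 64 bases around it.

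Of the other motifs searched on both strands, C/EBP (TTGC, any 2 bases, then AA) was found in Serpina3f alone among the members (10.8% of all windows) and the TATAAA box in Serpina3f and Serpina3c (13.6%). The TATAAA match of Serpina3f is not in its other window. The ISRE (GAAA, any 2 bases, then GAAA, 3.44% of windows), to which interferon-activated complexes bind, and the kappa B site (GGGA, any 2 bases, then TTCC, 1.47%) were found in 0 of the 5 genes. A match is a description of letters, and binding was not measured in these libraries.

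**Figure D1:**
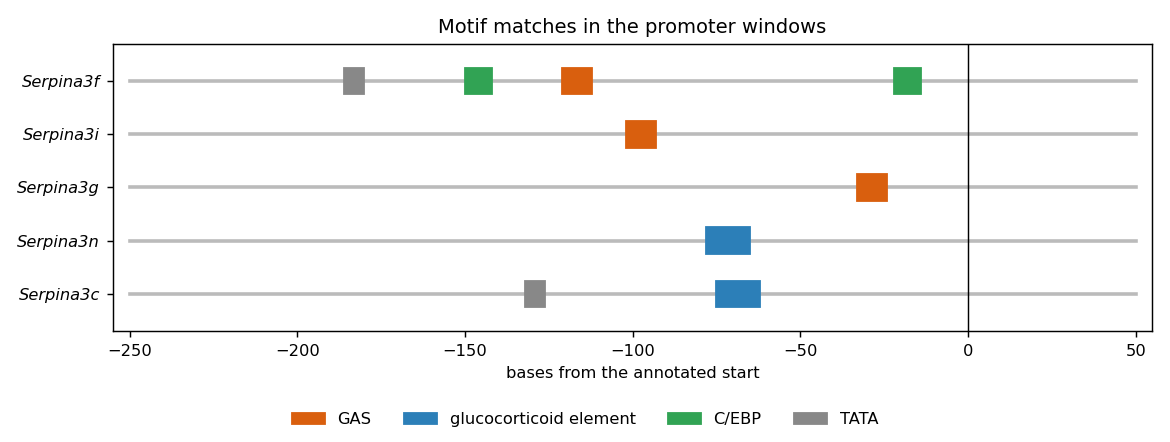
Matches to the searched motifs in the promoter windows of the 5 Serpina3 genes that have one, by bases from RefSeq's start (vertical line), with each box as long as its motif. GAS boxes lie in Serpina3f, Serpina3i and Serpina3g, and glucocorticoid element boxes in Serpina3n and Serpina3c.

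Of the 7 members, 4 had more than 3 reads in any library: Serpina3f, Serpina3n, Serpina3i and Serpina3g. Serpina3c and Serpina3m had 0 reads in all 12 libraries and Serpina3k had 1 read, in Dexa replicate 1. A count of 0 allows up to 3 reads in a library, which is 1.86 to 6.05 normalized counts at these depths, so a lower level was not detectable. Serpina3c thus had no read although its promoter window holds the same glucocorticoid element letters as that of Serpina3n. The levels of the members in these groups were known when the set was drawn up, so the levels and fold changes below are given as a description, with no test. In bulk RNA, more cells that express a gene and more RNA per cell cannot be told apart.

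Serpina3f was the member with the most reads after IFN-γ and went from at most 13 reads to at least 4311. Ctr-OPCs had 4, 13, 9 and 4 Serpina3f reads in replicates 1 to 4, Dexa-treated OPCs 4, 9, 4 and 7, and IFN-γ-treated OPCs 4311, 7062, 5413 and 5357. In normalized counts these were 5.57 ± 1.97 without treatment, 8.05 ± 3.25 with Dexa and 6034 ± 1190 with IFN-γ (SD, n = 4 each). Every IFN-γ library lay above every library of the other groups, while the Ctr and Dexa libraries overlapped. Between libraries of the same number, Serpina3f was 828-fold to 1583-fold higher with IFN-γ than in Ctr-OPCs, a mean log2 difference of 10.13 ± 0.39 (SD, n = 4). For Dexa against Ctr the mean log2 difference was 0.50 ± 0.69 (SD, n = 4), with replicate 2 slightly below 0 (-0.09). The fit over all genes, which leaves out Dexa replicate 3, gave a log2 change of 10.02 ± 0.34 (SE) for IFN-γ and 0.37 ± 0.48 (SE) for Dexa.

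Serpina3f has 3 annotated transcripts, and Salmon divided its reads among them. In IFN-γ-treated OPCs, 80.9% of the Serpina3f reads on average went to Serpina3f-202 (72.4 to 86.1% over the 4 libraries) and 18.9% to Serpina3f-203 (13.9 to 27.6%). Serpina3f-201 received reads in 1 IFN-γ library. With at most 13 reads in a Ctr or Dexa library, the division among transcripts could not be read in these groups.

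Serpina3i had no read in Ctr-OPCs and at least 231 in each IFN-γ library. Its reads numbered 0, 1, 1 and 1 in the Dexa libraries and 231, 394, 310 and 266 in the IFN-γ libraries, which is 326 ± 65.6 normalized counts (SD, n = 4) with IFN-γ. Against the floor of 3 reads per library, Serpina3i was at least 131-fold higher with IFN-γ than in Ctr-OPCs and at least 76.5-fold higher than in Dexa-treated OPCs. Serpina3i-202, a transcript that keeps an intron and has no annotated protein, took 28.0% of the Serpina3i reads in the IFN-γ libraries (23.6 to 30.7%), and the protein-coding Serpina3i-201 the rest. Of the 31-base words of Serpina3i-202, 34.0% are found in no other gene, so its share is uncertain.

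Serpina3g, the intracellular cathepsin inhibitor, was the least abundant of these 4 after IFN-γ. It had 0 reads in all Ctr and Dexa libraries and 28, 43, 22 and 20 reads in the IFN-γ libraries, or 29.9 ± 7.18 normalized counts (SD, n = 4). This is at least 12-fold above Ctr-OPCs and at least 7.02-fold above Dexa-treated OPCs.

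Serpina3n was the only member with more than 13 reads in any Ctr or Dexa library, and the only member with reads whose Ctr and Dexa libraries did not overlap. Its reads numbered 19, 48, 47 and 27 in Ctr-OPCs, 32, 113, 28 and 24 in Dexa-treated OPCs and 122, 454, 420 and 353 in IFN-γ-treated OPCs. Normalized for depth, the Ctr libraries had 17.4, 29.7, 32.4 and 29.3, the Dexa libraries 34.5, 95.1, 56.4 and 41.9, and the IFN-γ libraries 121, 429, 490 and 453. The lowest Dexa library (34.5) lay just above the highest Ctr library (32.4), and replicate 1 was lowest in each of the groups. Group means were 27.2 ± 6.66 without treatment, 57.0 ± 27 with Dexa and 373 ± 170 with IFN-γ (SD, n = 4 each). Among the 6314 tested genes listed whole in all 12 tables, 1.36% had all Dexa libraries above all Ctr libraries, 8.54% all IFN-γ above all Ctr, and 9.93% all IFN-γ above all Dexa libraries.

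Between libraries of the same number, Serpina3n was 1.98-fold, 3.20-fold, 1.74-fold and 1.43-fold higher with Dexa than in Ctr-OPCs in replicates 1 to 4. The mean log2 difference was 1.00 ± 0.49 (SD, n = 4), with the largest step in replicate 2. The fit over all genes gave a log2 change of 1.08 ± 0.51 (SE), and 0.48 ± 0.54 (SE) without Dexa replicate 2, when 2 Dexa libraries were left. With IFN-γ, Serpina3n was 6.95-fold higher than in Ctr-OPCs in replicate 1 and 14.4-fold to 15.5-fold higher in the other replicates, a mean log2 difference of 3.63 ± 0.56 (SD, n = 4). Over all genes the fit gave 3.77 ± 0.46 (SE), and 4.07 ± 0.35 (SE) without IFN-γ replicate 1. Serpina3n was also higher with IFN-γ than with Dexa in 4 of 4 pairs, by 3.51-fold to 10.8-fold. Of the same 6314 genes, 13.7% were higher in all 4 pairs for Dexa against Ctr, 21.6% for IFN-γ against Ctr and 24.3% for IFN-γ against Dexa.

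**Figure D2:**
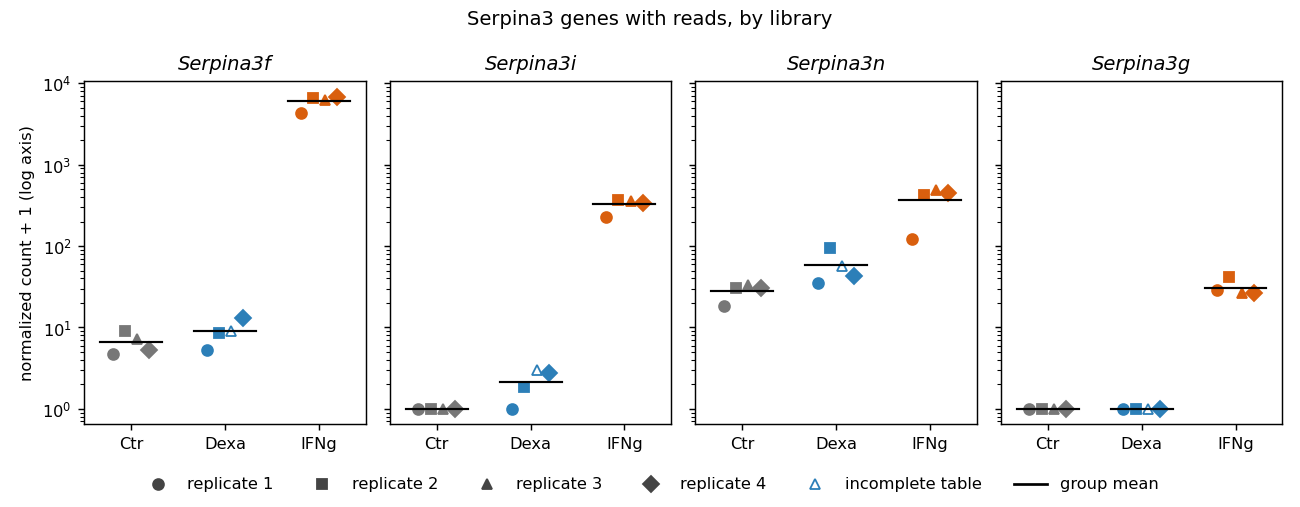
Normalized count plus 1 (log axis) of the 4 Serpina3 genes with more than 3 reads in a library, by group. Each symbol is a library, its shape the replicate number, the open triangle the Dexa library with an incomplete table, and the bar the group mean. Serpina3n is the gene whose Ctr and Dexa libraries do not overlap (means 27.2 in Ctr, 57.0 in Dexa and 373 in IFNg before adding 1).

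**Figure D3:**
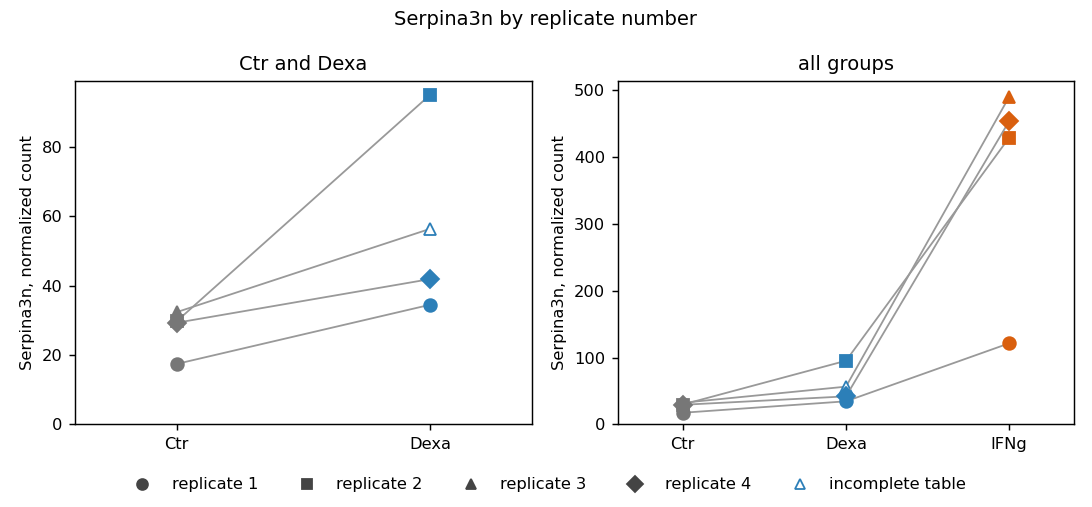
Normalized count of Serpina3n by library, with lines joining libraries of the same replicate number, the left panel holding Ctr and Dexa alone, and the open triangle the Dexa library with an incomplete table. All lines rise from Ctr to Dexa and from Dexa to IFNg, and replicate 1 is lowest in each group (17.4, 34.5 and 121).

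Levels of different genes were compared in TPM, which divides by transcript length. In Ctr-OPCs, Serpina3n had 0.158 to 0.338 TPM and Serpina3f 0.031 to 0.080 TPM, without overlap. In IFN-γ-treated OPCs the order was Serpina3f (43.9 to 78.9 TPM), Serpina3i (4.06 to 8.21 TPM), Serpina3n (1.34 to 5.41 TPM) and Serpina3g (0.425 to 0.806 TPM). The ranges of Serpina3i and Serpina3n overlapped, but within each IFN-γ library Serpina3i had the higher TPM. In reads, Serpina3n was higher in replicates 2 to 4 (454, 420 and 353, against 394, 310 and 266 for Serpina3i). The TPM order of these 2 genes rests in part on the reads given to Serpina3i-202 (701 bases), whose share is uncertain.

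The summed count of the 7 members was 32.8 ± 8.07 without treatment, 66.5 ± 27 with Dexa and 6763 ± 1417 with IFN-γ (normalized counts, SD, n = 4 each). Between libraries of the same number the sum was 221-fold, 199-fold, 186-fold and 229-fold higher with IFN-γ than in Ctr-OPCs, a mean log2 difference of 7.70 ± 0.14 (SD, n = 4). The steps of the sum lay closer together than those of Serpina3f or Serpina3n alone. With Dexa the sum was 1.66-fold to 2.74-fold higher than in Ctr-OPCs, a mean log2 difference of 0.97 ± 0.33 (SD, n = 4). IFN-γ against Dexa gave 6.73 ± 0.39 (SD, n = 4) on the log2 scale.

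The make-up of the sum turned over with IFN-γ. Serpina3n held 83.1 ± 3.48% of the Serpina3 reads in Ctr-OPCs, 84.6 ± 7.04% in Dexa-treated OPCs and 5.25 ± 1.83% in IFN-γ-treated OPCs (SD, n = 4 each). Serpina3f held 16.9 ± 3.48%, 13 ± 6.23% and 89.5 ± 1.74% of the reads in the same groups. The shares in Ctr-OPCs rest on 23 to 61 reads per library and those in Dexa-treated OPCs on 32 to 123, against 4692 to 7953 with IFN-γ. Serpina3i held 4.84 ± 0.27% and Serpina3g 0.457 ± 0.131% of the reads in the IFN-γ libraries (SD, n = 4). In TPM, where length is taken out, Serpina3n held 83.5%, 81.5% and 5.38% on average.

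**Figure D4:**
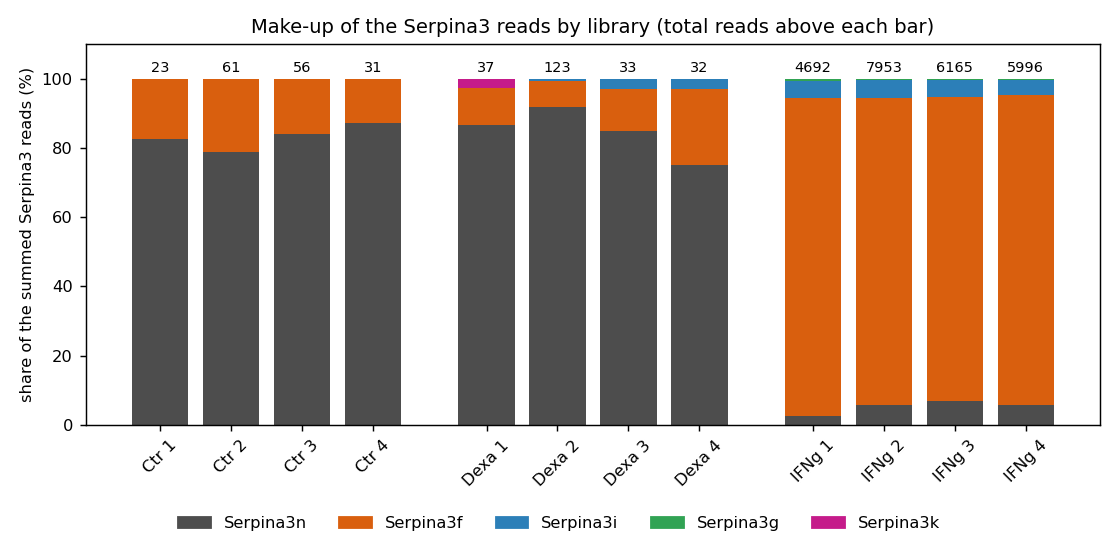
Share of each member in the summed Serpina3 reads of a library, in percent, with the number of reads above each bar. Serpina3n fills 75 to 91.9% of every Ctr and Dexa bar, and Serpina3f 87.8 to 91.9% of every IFNg bar.

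Of the 7 members, 4 passed the filter of at least 10 counts in at least 4 libraries, Serpina3i and Serpina3g only through the IFN-γ libraries. In the fit across all genes, these 4 were called higher (DESeq2's Wald test, adjusted p under 0.05) with IFN-γ than in Ctr-OPCs, where 8.02% of the 17919 genes tested were called higher, and with IFN-γ than with Dexa, where 7.66% were. With Dexa against Ctr 0 members were called, beside 0.508% of genes called higher. With the replicate number as a block in DESeq2, Serpina3n was called higher with Dexa (2.05% of genes were) and Serpina3g was no longer called with IFN-γ (15.2% of genes were called higher). These contrasts served to choose the members, so nothing is read from these calls.

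The 7 other Serpina3 loci of the cluster had few reads, with the exception of Serpina3h. Serpina3a, Serpina3b, Serpina3d-ps and Serpina3l-ps had 0 reads in every library, and Serpina3j had 3 reads, all in Dexa replicate 2. Serpina3h, annotated as a transcribed pseudogene in this build, lies between Serpina3g and Serpina3i. It had at most 2 reads in a Ctr library and 0, 9, 0 and 1 in the Dexa libraries, against 44, 137, 78 and 68 in the IFN-γ libraries, which is 87.8 ± 35.0 normalized counts (SD, n = 4) and at least 35.3-fold above Ctr-OPCs. Serpina3e-ps had 4 to 8 reads in the IFN-γ libraries and at most 2 elsewhere. The loci with more than 3 reads after IFN-γ thus formed a stretch from Serpina3e-ps to Serpina3i, plus Serpina3n at the far end of the cluster.

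**Figure D5:**
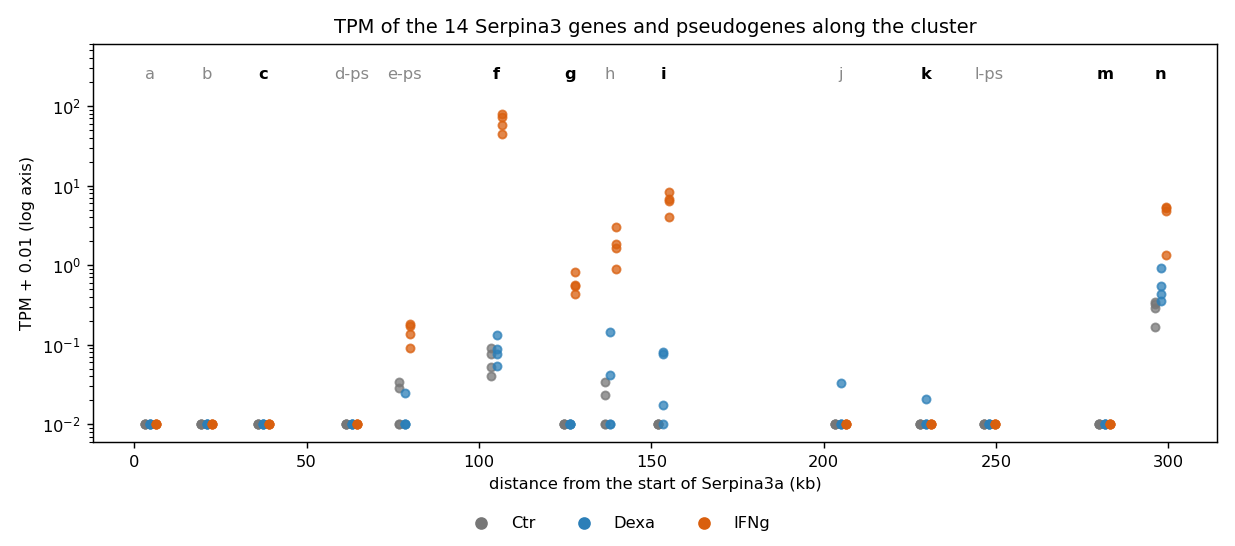
TPM plus 0.01 (log axis) of the 14 Serpina3 genes and pseudogenes in each library, by the distance of the middle of the gene from the start of Serpina3a, with members in bold and Serpina3m, whose span overlaps that of Serpina3k, drawn at its end. IFNg points rise above the base line in e-ps, f, g, h, i and n, and stay on it in a, b, c, d-ps, j, k, l-ps and m.

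Near-identical copies can share reads, and the estimated counts depend on how Salmon divided them. Of the 31-base words of the main transcript, those found in no other gene made up 78.4% for Serpina3n-201, 73.3% for Serpina3i-201, 72.6% for Serpina3f-202, 69.9% for Serpina3g-201 and 57.2% for the pseudogene transcript Serpina3h-202. For Serpina3e-ps-201 they made up 64.3%. The other words of Serpina3f-202 were shared most with Serpina3g, and those of Serpina3i-201 with Serpina3h. Those of Serpina3h-202 were shared most with Serpina3g and Serpina3i, and those of Serpina3e-ps-201 with Serpina3i. The low counts of Serpina3g, Serpina3h and Serpina3e-ps beside those of Serpina3f and Serpina3i are therefore uncertain, as are the counts of Serpina3i. How many of these reads are misplaced was not tested.

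The reactive centre loop, which sets the proteases that a serpin can trap, is where the coding sequences of the members with reads differed more than in the hinge or as a whole. The coding bases of the loop are shown for the 4 members with reads, from GENCODE M21 transcripts on GRCm38, 5′ to 3′ on the strand of the gene. The 27 bases of the hinge before the loop are in lower case and the variable loop in capitals, and each stretch lies in the last exon.
Serpina3f, chr12:104220242-104220328 (plus strand): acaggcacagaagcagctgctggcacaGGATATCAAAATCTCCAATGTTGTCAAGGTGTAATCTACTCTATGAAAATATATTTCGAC
Serpina3i, chr12:104268477-104268560 (plus strand): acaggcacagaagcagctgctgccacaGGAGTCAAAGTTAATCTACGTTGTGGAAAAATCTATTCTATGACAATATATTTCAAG
Serpina3g, chr12:104241069-104241152 (plus strand): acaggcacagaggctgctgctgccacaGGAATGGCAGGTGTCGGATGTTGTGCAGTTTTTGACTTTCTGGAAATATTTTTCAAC
Serpina3n, chr12:104413445-104413528 (plus strand): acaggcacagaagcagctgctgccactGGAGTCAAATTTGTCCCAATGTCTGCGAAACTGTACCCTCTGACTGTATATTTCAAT

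Among these 4 genes the hinge bases were 88.9 to 96.3% identical over 6 pairs and the coding sequences 85.0 to 92.1%, while the loop bases were 52.6 to 83.0% identical. Identity was counted over aligned bases, with gaps left out. The coding sequence of Serpina3g-201 has 744 bases, against 1224 to 1335 in the others. Its pairs were aligned over 648 to 744 bases, so they cover a part of the other genes. Serpina3f and Serpina3i had the most similar loops (83.0%) and coding sequences (92.1%). The least similar loops were those of Serpina3g and Serpina3n (52.6%). The loop was 60 bases long in Serpina3f and 57 in the other members shown. Reads over the loop itself were not counted.

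By Pearson r over log2(normalized count + 1) in the 11 complete libraries, which share their depth between genes, the genes outside the set most like Serpina3n were Agap1 (0.976), Syt9 (0.970), Serpina3h (0.969), Atp6v1h (0.969) and Col16a1 (0.967). Those most like Serpina3g were the guanylate-binding protein gene Gbp2 (0.998), Gm49730 (0.997) and the interferon regulatory factor gene Irf1 (0.997). Since Serpina3g had 0 reads in every Ctr and Dexa library, this order only lists genes that are high with IFN-γ and low elsewhere. When group means were removed, the genes most like Serpina3n were Fam149a, Spire1, Dab1, Ppp1r14c and Mical1 (0.958 to 0.967).

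Serpina3n is also a gene of reactive astrocytes, so the levels of astrocyte and microglial markers are given beside it. The summed TPM of 8 astrocyte markers was 126 to 342 in Ctr-OPCs, 280 to 510 in the 3 complete Dexa libraries and 263 to 436 in IFN-γ-treated OPCs. With IFN-γ 2 of the 8 were called higher and 0 lower, beside 8.02% and 4.83% of all genes. Gfap, which codes for the astrocyte intermediate filament, had 0.033 to 0.327 TPM in Ctr-OPCs, 0.266 to 1.06 TPM with Dexa and 1.29 to 3.27 TPM with IFN-γ. Not all markers moved this way: Aqp4 had 1.25 to 6.49 TPM in Ctr-OPCs and 0.86 to 3.53 TPM with IFN-γ, and Fgfr3 6.97 to 29.4 TPM and 5.51 to 13.1 TPM. Some of these markers, such as Slc1a3 and Fgfr3, are also expressed by OPCs. The 8 microglial markers summed to 0.134 to 0.472 TPM in Ctr-OPCs, 0.222 to 0.464 TPM with Dexa and 0.320 to 0.916 TPM with IFN-γ, with Aif1 and Cx3cr1 at or under 3 reads in every complete library. Serpina3f had 43.9 TPM or more in each IFN-γ library. The part of astrocytes in the Serpina3n level was not tested.

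The other serpins of the genome were compared to see how far the response reached beyond the cluster. The 54 other protein-coding serpin genes include Serpina3a, Serpina3b and Serpina3j of the cluster. Of the 54, 13 were tested, all of them outside the cluster. Of these, 3 rose with IFN-γ against Ctr by both DESeq2 and edgeR, 0 fell by either, and 23 of the 54 had 0 reads in the complete tables. Over all genes DESeq2 called 8.02% higher and 4.83% lower, and edgeR 8.44% in either direction. Serping1, Serpinb9 and Serpinb8, the 3 that rose, passed the filter only with IFN-γ libraries counted, so nothing is read from their calls. Serping1, which codes for the C1 inhibitor of complement, had 5.0 to 11 normalized counts in Ctr-OPCs and 4059 to 4355 in IFN-γ-treated OPCs. Its log2 change was 9.17 ± 0.25 (SE, DESeq2 adjusted p = 9.5e-286). Serpinb9, an intracellular inhibitor of granzyme B, had 3.7, 16.7, 4.8 and 6.5 normalized counts in Ctr-OPCs and 257, 307, 174 and 254 with IFN-γ. It rose by 4.91 ± 0.43 (SE) on the log2 scale (DESeq2 adjusted p = 5.08e-28). Serpinb8 rose by 2.5 ± 0.62 (SE, DESeq2 adjusted p = 0.000791), from 2.8 to 4.3 normalized counts in Ctr-OPCs to between 8.2 and 35.9 with IFN-γ. It reached 10 counts in 4 complete libraries, the fewest the filter allows, so it was not tested without IFN-γ replicate 1, 2 or 4 or Dexa replicate 2.

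With the replicate block in DESeq2, 4 other serpins were higher with IFN-γ and 2 lower, beside 15.2% and 14.1% of all genes. Serpinf1 joined the genes that rose, and Serpine2 and Serpinh1 had log2 changes of -0.38 and -0.60. Serpine2, an inhibitor of thrombin and of plasminogen activators, had 27313 ± 6104 normalized counts in Ctr-OPCs (SD, n = 4). The median log2 change of the 13 serpins with IFN-γ was 0.04, and that of all genes tested -0.02. With Dexa against Ctr 0 of the 13 were called by DESeq2 or edgeR, with 1 at an unadjusted p under 0.05 in each. Of all genes, DESeq2 called 0.508% higher with Dexa and edgeR 0.123% in either direction. Serpinb9 had a log2 change of 1.49 ± 0.49 with Dexa (SE, DESeq2 adjusted p = 0.264). With the block in DESeq2 Serpinb9 was higher and Serpinh1 lower with Dexa (2.05% of all genes were higher and 0.513% lower). Serpinb9 was also called without Ctr replicate 2, at a log2 change of 2.25.

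The proteases that serpins of this kind meet were looked at next. Of 26 peptidase genes, 15 were tested, and the leukocyte enzyme genes Elane, Ctsg, Prtn3, Gzma and Gzmb were not among them. With IFN-γ against Ctr 1 of the 15 peptidases was called higher, a share near the 8.02% of all genes, and 0 lower, beside 4.83%. Plat, which codes for tissue plasminogen activator, had 7978, 4567, 2551 and 3499 normalized counts in Ctr-OPCs and 13759, 9891, 6259 and 8413 with IFN-γ, a log2 change of 1.04 ± 0.37 (SE, DESeq2 adjusted p = 0.0407). The groups overlapped. Plat was higher with IFN-γ in 4 of 4 pairs, as were 21.6% of the 6314 tested genes listed whole in all 12 tables. Without the replicate block, edgeR did not call Plat (adjusted p = 0.116). Its DESeq2 call was lost without Ctr replicate 2, 3 or 4, Dexa replicate 2 or IFN-γ replicate 1, 2 or 4. Adjusted p was 0.0608 to 0.186 in these DESeq2 fits. With the replicate block both tools called Plat (adjusted p = 2.2e-34 in DESeq2 and 1.7e-06 in edgeR). Klk8, a kallikrein gene, was called higher without Ctr replicate 1 (log2 change 1.79, DESeq2 adjusted p = 0.0433). The block in DESeq2 called 5 peptidases higher (Plat, Klk8, Mmp14, Ctsc and Ctsz), beside 15.2% of all genes. The 8 cathepsin genes tested had log2 changes with IFN-γ from -0.28 (Ctsk) to 0.32 (Ctsc), and without the block 0 of them were called. With Dexa 0 of the 15 were called by DESeq2 or edgeR, with 0 at an unadjusted p under 0.05 in either. Of all genes, DESeq2 called 0.508% higher with Dexa and edgeR 0.123% in either direction. With the block in DESeq2 Ctsc was called lower (log2 change -0.43), beside 0.513% of all genes.

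Serpina3n is counted among acute-phase genes, whose products rise in plasma during inflammation. Of 23 genes on that list 5 were tested, and with IFN-γ 2 rose and 0 fell by DESeq2 and by edgeR, beside 8.02% and 4.83% of all genes in DESeq2. C4b, complement component 4, had 23.9 to 50.5 normalized counts in Ctr-OPCs and 6722 to 12240 with IFN-γ, a log2 change of 7.89 ± 0.30 (SE, DESeq2 adjusted p = 5.3e-154). C4b has a near-identical copy, C4a, so its count is uncertain. Socs3, the feedback inhibitor of cytokine receptors, had 308 to 380 normalized counts in Ctr-OPCs and 825 to 960 with IFN-γ, and rose by 1.40 ± 0.13 on the log2 scale (SE, DESeq2 adjusted p = 1.2e-26). With Dexa 0 of the 5 were called by DESeq2 or edgeR, with 1 at an unadjusted p under 0.05 in each. Of all genes, DESeq2 called 0.508% higher with Dexa and edgeR 0.123% in either direction. With the block in DESeq2 A2m and Cp were called higher with IFN-γ (15.2% of all genes were) and with Dexa (2.05% were).

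Lcn2, on the same list, is a secreted iron carrier often measured with Serpina3n as a sign of reactive astrocytes. It failed the filter and is named after its values were seen. It had 0, 3, 0 and 0 reads in Ctr-OPCs, 35, 137 and 5 in Dexa replicates 1, 2 and 4, and 0, 34, 2 and 2 in IFN-γ-treated OPCs. With no filter on low counts it was called higher with Dexa (DESeq2 adjusted p = 0.012). As with Serpina3n, the Dexa library with the most reads was replicate 2.

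Genes around the cluster were followed to see whether the change covered the region. The 38 other protein-coding genes within 1 Mb of the members include Serpina3a, Serpina3b and Serpina3j. Of the 38, 12 were tested, and with IFN-γ 3 were called higher and 1 lower, beside 8.02% and 4.83% of all genes. Ifi27, an interferon-induced gene, had 113 to 192 normalized counts in Ctr-OPCs and 3006 to 3786 with IFN-γ, a log2 change of 4.49 ± 0.20 (SE, DESeq2 adjusted p = 3.05e-110). Its relative Ifi27l2a had a log2 change of 3.94 ± 0.85 (SE, DESeq2 adjusted p = 8.06e-05), from at most 5 reads in a Ctr library. Ifi27l2a passed the filter only through the IFN-γ libraries (13 to 21 reads), so nothing is read from its call. Ddx24, an RNA helicase gene, rose by 0.24 ± 0.07 (SE, DESeq2 adjusted p = 0.00503, edgeR 0.0551). Tunar was called lower, with a log2 change of -2.61 ± 0.91 (SE, DESeq2 adjusted p = 0.0367), and its Ctr libraries ranged from 2.8 to 88.0 normalized counts. edgeR did not call Tunar (adjusted p = 0.163), and the call was lost without Ctr replicate 3 or 4 or any IFN-γ library (adjusted p = 0.0674 to 0.373 in DESeq2). The other 8 tested neighbours, among them Dicer1, Glrx5, Otub2 and Clmn, were not called by DESeq2, and the median log2 change of the 12 was -0.04. With the block in edgeR Clmn (log2 change 0.40, adjusted p = 0.0468) and Otub2 (-0.18, adjusted p = 0.0482) were called too. That fit called 5606 of the 17919 genes tested. With Dexa 0 of the 12 were called by DESeq2 or edgeR, with 1 at an unadjusted p under 0.05 in each. Of all genes, DESeq2 called 0.508% higher with Dexa and edgeR 0.123% in either direction.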

How the data were processed

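Total RNA-seq of 12 OPC cultures (Ctr, Dexa and IFNg, 4 litters each) was used as deposited. The authors quantified trimmed reads with Salmon 0.8.2 and deposited, for each library, an estimated count and a TPM value per transcript. The submitters' processing notes also name STAR. A further 3 deposited tables hold the authors' own DESeq2 comparisons (mean count, log2 fold change, standard error, statistic, p-value and adjusted p-value), which were not used.

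Estimated counts were summed per gene by GENCODE M21 (GRCm38; 0 of 141862 transcripts unmatched) and rounded. The 17919 genes that reached 10 counts in 4 or more libraries were tested. DESeq2 1.42.0 (R 4.3.3, Wald test, group alone, no shrinkage, Benjamini-Hochberg, threshold 0.05) was fitted over the 11 complete libraries, since Dexa replicate 3 listed 47855 transcripts. Alternatives were edgeR 4.0.16, the replicate block, TMM factors, no filter, all 12 libraries, deposited TPM (pseudocount 0.1) and leaving out each library. The tests were tried on simulated data, in which both tools recovered most large changes, but the share of false calls was above the threshold in DESeq2 and below it in edgeR, so calls by DESeq2 alone are the less certain.

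Members and lists were chosen with earlier results of these data known. Named genes were the members, Serpina3a, Serpina3b, Serpina3h and Serpina3j where they had reads, up to 6 called genes per list and contrast by absolute log2 change, and the genes most like Serpina3n (5, 5 without group means) and Serpina3g (3). Replicate numbers were taken to pair the libraries. Deviations from group means correlated at 0.404 to 0.722 between libraries of the same number (10 pairs) and at -0.614 to 0.495 otherwise (30 pairs). These ranges overlap, and Dexa replicate 3 was not in this comparison, so its pairing was not checked. No 2 libraries of a group agreed within sampling noise (chi-square per degree of freedom 22.0 to 223). Reads in genes were 19209059 to 52074655, and PCR copies were not told apart, so the limit of 3 reads covers counting error only.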

Additional observations from a re-analysis of the deposited data

Results flagged for a closer look

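In 3 of the 12 combinations examined, of a Serpina3 gene or their sum with a group of 4 libraries, 1 library stood far from the other 3 of its group, by the gap to its neighbour over the group's range. Chance gives this in about 1 in 20 groups. Serpina3g was at 40.6 normalized counts in IFN-γ replicate 2, with the nearest other library at 27.8. Serpina3n was at 121 in IFN-γ replicate 1, with the nearest at 429. The sum of the 7 members was at 4662 in IFN-γ replicate 1, with the nearest at 7186. In replicate 1 Serpina3n was also lowest among the Ctr libraries (17.4) and the Dexa libraries (34.5).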

How the results depend on the processing

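No result changed direction among the alternatives tried. Genes called numbered 2302 for IFN-γ against Ctr, 98 for Dexa against Ctr and 2345 for IFN-γ against Dexa in the main comparisons, and 1566 to 2666, 59 to 112 and 1649 to 2518 when 1 library was left out, with 63 for Dexa against Ctr without Dexa replicate 1 and 59 without Dexa replicate 2. edgeR called 1513 and 22 of the first and second. With the replicate block, DESeq2 called 5238, 460 and 5662 and edgeR 5606, 282 and 6045. Over 12 libraries on the genes listed whole, where fewer genes are tested, 834, 22 and 1107 were called.

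With the replicate block, 6 other serpins, 5 peptidases and 4 acute-phase genes were called with IFN-γ by either tool, and 6 neighbouring genes by edgeR. Of the 17919 genes tested, DESeq2 called 5238 and edgeR 5606 in that contrast. With Dexa under the block, DESeq2 called 2 other serpins, 1 peptidase and 2 acute-phase genes and edgeR 1 acute-phase gene, beside 460 and 282 of all genes. Without the block, edgeR called 0 peptidases and 2 neighbouring genes with IFN-γ. The fit over 12 libraries called 0 peptidases and 1 acute-phase gene with IFN-γ. It holds only genes listed whole in all 12 tables, so Plat and C4b were not tested in it. Without a filter on low counts 1 acute-phase gene was called with Dexa. Leaving out 1 library gave 0 to 2 peptidases and 2 to 4 neighbouring genes with IFN-γ, and 0 to 1 other serpins with Dexa. The 4 neighbouring genes became 2 without any IFN-γ library, when Tunar lost its call and Ifi27l2a no longer passed the filter.

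The log2 change of the summed Serpina3 count, 7.70 for IFN-γ against Ctr, was 7.43 in deposited TPM and 7.52 to 7.82 when 1 library was left out, lowest without Ctr replicate 1. That of Serpina3f fell from 10.02 to 8.65 in deposited TPM, where the pseudocount of 0.1 is above its Ctr levels. For Dexa against Ctr the log2 change of the sum was 0.97, and 0.51 to 1.30 with 1 library left out, lowest without Dexa replicate 2. For IFN-γ against Dexa that of the sum was 6.73, and 6.37 to 7.16, highest without Dexa replicate 2. The values 7.70, 0.97 and 6.73 are means over the 4 pairs. The values with 1 library left out come from fits that ignore the pairs and also lack Dexa replicate 3, so the 2 kinds differ in more than the library removed. Serpina3g and Serpina3i have no fitted value without an IFN-γ library, since the filter needs 4. Serpina3i, Serpina3g and the Ctr and Dexa levels of Serpina3f rest on few reads.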
